A study of Mus musculus with 8 samples.

Results

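The genes described here are 36 genes of the p53 response and of apoptosis, taken by symbol from a table of 32499 genes. They were sorted by role into p53 and its regulators (4 genes), p53 targets in repair and arrest (18), BH3 and BCL2 genes (9), and death receptors and caspases (5). All 36 were in the table, and 34 had enough reads to be tested; Trp73 and Dram1 did not. They were measured by total RNA-seq in neural progenitor cells of C57BL/6 mouse embryos at embryonic day 14. The cells were dissociated from neural tubes and sorted with NeuroFluor CDr3, a live dye for neural progenitors, and 4 libraries labelled 53BP1 KO (KO below) were compared with 4 labelled control, which the protocol describes as wild type. The protocols name the Trp53bp1tm1Jc knockout line and also a cross of its females with males carrying CRISPR-made in-frame deletions in 53bp1; which alleles each KO library carries is not stated. Nor is it stated whether each library is a separate embryo, or whether the sorted cells had first been kept in differentiation medium. The p-values therefore measure the spread between these libraries only, which may be technical. The design set the 53BP1 genotype beside the transcriptome of neural progenitors, and the comparison below asks how these 36 genes differed between the groups.

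p53 is a transcription factor that is kept low by Mdm2 and Mdm4 and is stabilised by DNA damage and other stresses. Its targets halt the cell cycle, repair DNA, or trigger apoptosis through BH3-only proteins, which release Bax and Bak from inhibitors such as Bcl2, Bcl-xL and Mcl1 so that the mitochondrion frees cytochrome c and Apaf1 activates caspase 9. Neural progenitors are known for their readiness to die through this route when DNA is damaged, and 53BP1, named for its binding to p53, acts in double-strand break repair and can modulate p53 activity.

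Library depth was between 11081419 and 24339621 counts. Levels of Trp53bp1, the targeted gene, overlapped between groups: it had 27.2, 26.4, 26.9 and 26.6 CPM (read counts scaled to library size by TMM) in controls 1 to 4, and 30.4, 33.8, 19.2 and 25.2 CPM in KO libraries 1 to 4. The log2 fold change was 0.01 with an SE of 0.14 (adjusted p = 0.96). In-frame deletions need not lower a gene's count, and the alleles of each KO library are not stated, so this level does not check the labels. Exons of Trp53bp1 also overlap those of Tubgcp4 on the opposite strand. Counts of Xist ranged from 23853 to 26134 across controls and from 9 to 16 across KO libraries, while those of Ddx3y were 0 in each control and 579 to 1064 across KO libraries. Group and sex thus coincide, and the effect of the genotype cannot be told apart from that of sex in any result below. All 10 progenitor markers were detected in both groups, summing to 9545 to 11630 CPM across controls and 9050 to 12470 CPM across KO libraries. Most of that sum was Fabp7, with means of 7591 and 7793 CPM; of the 10 markers 5 rose and 3 fell, namely Nes (-0.90), Prom1 (-0.63) and Vim (-0.39). Of 8 microglial markers 7 averaged below 1 CPM, and of 7 erythroid markers 6 did, 2 of them at 0 in every library. Astrocyte markers, 6 of 7 of which rose, summed to 272.6 to 339.4 CPM across controls and 663.8 to 801.1 CPM across KO libraries. Oligodendrocyte markers (3 of 7 higher, 2 lower) summed to 2650 to 2972 CPM across controls and 2453 to 2919 CPM across KO libraries. Neuronal markers (2 of 10 higher, 3 lower) summed to 543.7 to 693.1 against 510.8 to 572.4 CPM. Neural crest markers (2 of 4 tested higher) summed to 19.4 to 27.3 against 28.7 to 34.5 CPM. Mesenchymal markers summed to 30.1 to 77.9 CPM across controls and 11.7 to 14.5 CPM across KO libraries, with 3 of 5 tested markers lower and 1 higher. Endothelial markers (2 of 3 tested lower) summed to 8.77 to 14.9 against 2.98 to 7.06 CPM, and muscle markers (2 of 3 tested lower) to 32.1 to 42.5 against 17.2 to 20.5 CPM. In these bulk libraries, fewer cells of a type and less RNA per cell cannot be told apart. Control 4 stood apart from the other libraries on the second principal component, and values without it are given where they matter.

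The p53 protein binds pairs of a consensus decamer, and the places where that decamer occurs near the starts of these genes are shown first, because the letters can be set beside the values of the same genes. RefSeq promoter windows of GRCm38.p6 (250 bases before to 50 bases after a start) matched 28 of the 36 genes by symbol; the other 8 are Zmat3, Rrm2b, Trp53inp1, Ddb2, Xpc, Perp, Pmaip1 and Tnfrsf10b. The decamer, which reads alike on both strands, was found in the windows of 10 of these 28 genes (35.7%), against 2582 of 27025 genes with a window (9.55%). By window, 11 of 39 held it (28.2%), against 2745 of all 32851 (8.36%). Many of these genes were listed because they are known p53 targets, so these shares do not test for an excess. Among p53 targets in repair and arrest the decamer was found in 7 of 12 genes, among the regulators in 2 of 4, among BH3 and BCL2 genes in 1 of 8, and among death receptors and caspases in 0 of 4. No window of these genes held a pair of decamers at most 13 bases apart, which 0.0731% of all 32851 windows did. The 8 stretches below are the decamers of the 7 genes that fell in the KO libraries and that of Bax, which did not pass; capitals mark the decamer, and each is written in the direction of the gene.
Mdm2, chr10:117710910-117710969, minus strand: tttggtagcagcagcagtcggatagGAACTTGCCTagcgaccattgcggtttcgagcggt
Ccng1, chr11:40755437-40755496, minus strand: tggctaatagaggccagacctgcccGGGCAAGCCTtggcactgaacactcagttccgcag
Ddit4l, chr3:137623557-137623616, plus strand: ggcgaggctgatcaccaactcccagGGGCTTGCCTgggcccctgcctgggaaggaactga
Polk, chr13:96519384-96519437, minus strand: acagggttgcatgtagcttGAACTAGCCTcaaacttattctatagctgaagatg
Ei24, chr9:36797335-36797369, minus strand: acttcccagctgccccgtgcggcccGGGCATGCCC
Aen, chr7:78895927-78895956, plus strand: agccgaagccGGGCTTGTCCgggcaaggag
Gtse1, chr15:85859945-85859974, plus strand: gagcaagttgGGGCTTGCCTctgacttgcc
Bax, chr7:45467065-45467124, minus strand: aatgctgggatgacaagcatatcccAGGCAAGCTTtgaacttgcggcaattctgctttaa
The decamer began 186 bases before the start of Mdm2, 185 before that of Ccng1, 90 before that of Ddit4l, 231 before that of Polk, 10 before that of Ei24 and 201 before that of Bax. In Aen the decamer lay just past the start, and in Gtse1 its end lay past the start. For each of them 30 bases are shown. Trp53 and Rps27l, which did not pass either, also held decamers, and their stretches are not printed here. These coordinates belong to GRCm38.p6, while the submitters' processing notes name mm9 and NCBIM37 for the counts, and a match is a description of letters and not a binding site.

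Across the 34 tested genes, 16 fell and 4 rose in the KO libraries (quasi-likelihood F-test in edgeR, p adjusted by Benjamini-Hochberg over all genes, threshold 0.05), with a median log2 fold change of -0.34. Over all 15021 genes tested, 30.0% passed, 16.1% higher and 13.9% lower, with a median of 0.00. Libraries of the 2 groups were fully separated for 18 of the 34 genes, 13 lower and 5 higher, against 29.9% of all genes tested, 13.9% lower and 15.9% higher. By role, 2 of 3 regulators, 9 of 17 targets, 2 of 9 BH3 and BCL2 genes and 3 of 5 receptors and caspases fell, while 0, 2, 2 and 0 rose. The medians were -0.29, -0.49, -0.11 and -0.54 in that order. Whether the role groups differed from each other was not tested. These genes were chosen with earlier results of the same data known, so the counts describe them and carry no p of their own.

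**Figure D1:**
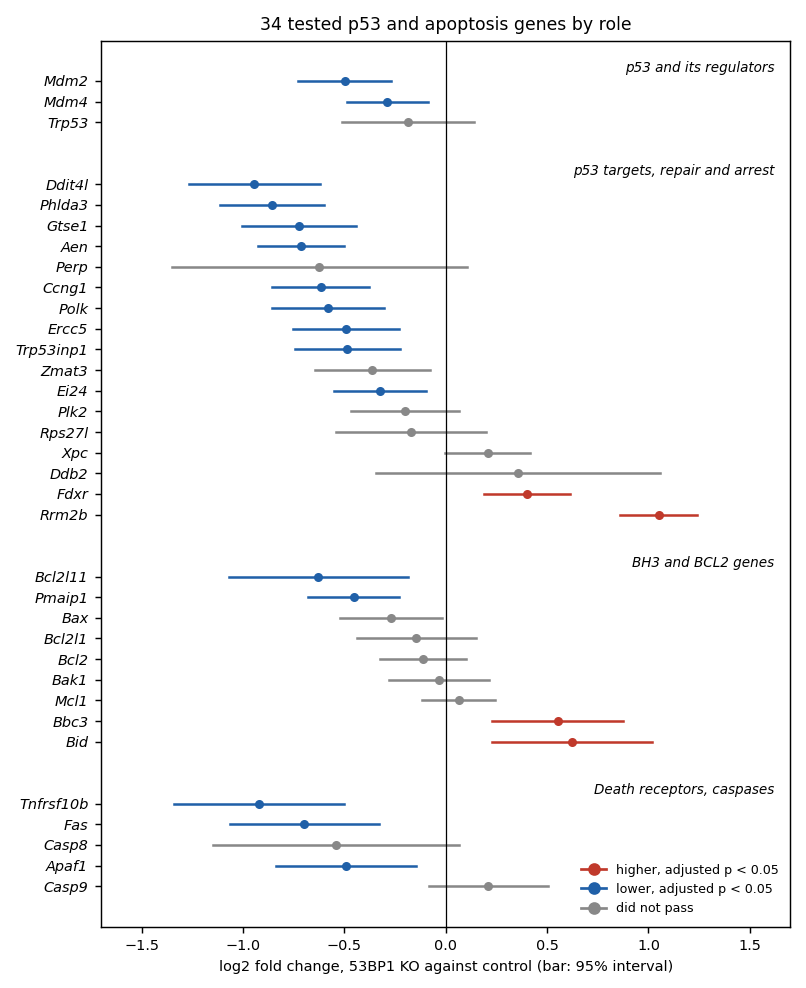
Log2 fold change of the KO against the control libraries (x axis) for the 34 tested genes, grouped by role, with points for the estimate and bars for the 95% interval; colour marks the call at an adjusted p of 0.05. The targets lean to the left with Ddit4l at -0.94, while Rrm2b at 1.05 is the one estimate above 1 and the BH3 and BCL2 genes fall on both sides of 0.

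Trp53 itself, the gene of p53, was not shown to differ. It had 11.4, 11.1, 9.54 and 10.9 CPM in controls 1 to 4 and 9.05, 11.8, 10.4 and 7.04 CPM in KO libraries 1 to 4, and the groups overlapped. Its log2 fold change was -0.19 (95% interval -0.51 to 0.14, adjusted p = 0.39). Mdm2, the ubiquitin ligase that marks p53 for destruction and is also a p53 target, had 41.4, 47.6, 52.4 and 38.7 CPM across controls 1 to 4 and 32.7, 31.3, 29.9 and 33.4 CPM across KO libraries 1 to 4. Every KO library lay below every control (-0.50, SE 0.11, adjusted p = 0.00302). Mdm4, which binds p53 and blocks its activity, had 286.3, 336.9, 334.8 and 282.3 CPM in the controls, against 278.9, 259.4, 233.8 and 243.8 in the KO libraries. The groups were separated by a narrow gap between control 4 and KO library 1, and the fall was small (-0.29, SE 0.09, adjusted p = 0.0312). That call was lost without control 2, control 3, KO library 3 or KO library 4. Trp73, the gene of the p53 relative p73, had 38 counts in all controls together and 11 in all KO libraries and was not tested.

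The 9 targets that fell had log2 fold changes between -0.32 and -0.94. Ccng1, which encodes cyclin G1, had the highest level per exon length of the targets (562.5 CPM per kb in the controls), with 2083, 2151, 2022 and 1647 CPM across controls 1 to 4 and 1278, 1152, 1519 and 1201 CPM across KO libraries 1 to 4. The groups did not overlap, with control 4 the lowest control and KO library 3 the highest of its group (-0.62, SE 0.11, adjusted p = 0.000782). Phlda3, an inhibitor of the kinase AKT, had 97.6, 84.1, 82.0 and 70.3 CPM in the controls, against 46.5, 38.1, 46.0 and 53.5 in the KO libraries. All KO libraries were below all controls, a 1.81-fold lower level (log2 SE 0.12, adjusted p = 0.000104). Ddit4l, an inhibitor of mTORC1 signalling, had 41.7, 35.2, 30.2 and 25.1 CPM across controls 1 to 4 and 16.97, 14.0, 17.4 and 20 CPM across KO libraries 1 to 4. Its fall was -0.94 (SE 0.15), and the groups did not overlap.

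Aen, a nuclease that acts downstream of p53 in apoptosis, had 64.9, 56.4, 55.5 and 52.4 CPM in the controls, against 35.6, 34.2, 31.7 and 38.1 in the KO libraries. Its groups were well apart (-0.71, SE 0.10, adjusted p = 9.82e-05). Gtse1, a microtubule-binding protein made in S and G2 phase that can move p53 out of the nucleus, fell from 15.7 ± 1.55 to 9.56 ± 1.43 CPM (SD, n = 4). Its log2 fold change was -0.72 (SE 0.13). Trp53inp1, a p53 cofactor that also acts in autophagy, fell from 102.3 ± 18.5 to 73.1 ± 4.34 CPM (-0.49), with KO library 4 above control 4. Ei24, a membrane protein of the endoplasmic reticulum, fell by 0.32 on the log2 scale, with KO library 2 just above control 4, and its call was lost on leaving out any library other than control 4 or KO library 2.

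Genes of DNA repair in this group did not move as one. Polk, a polymerase that copies past damaged bases, had 33.1, 42.2, 40.8 and 27.5 CPM across controls 1 to 4 and 24.5, 24.7, 24.5 and 22.5 CPM across KO libraries 1 to 4. The KO values were tightly grouped below all controls (-0.58, SE 0.13, adjusted p = 0.00362). Ercc5, the nuclease XPG of nucleotide excision repair, fell from 34.6 ± 4.93 to 24.7 ± 3.03 CPM (-0.49, SE 0.12), also without overlap. The damage sensors of the same pathway did not fall with it. Xpc had 25.9, 25.8, 23.8 and 24.4 CPM in the controls, against 27.3, 30.1, 26.6 and 31.5 in the KO libraries; every KO library was higher, but the gene did not pass (0.21, with a 95% interval from just below 0 to 0.42, adjusted p = 0.127). Ddb2 had few reads, with 96 counts in all controls and 129 in all KO libraries (0.36, 95% interval -0.34 to 1.06).

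Rrm2b, the p53-inducible subunit of ribonucleotide reductase that supplies nucleotides for repair outside S phase, went the other way. It had 70.2, 77.3, 75.6 and 76.7 CPM across controls 1 to 4 and 153.9, 135.6, 168.6 and 162.5 CPM across KO libraries 1 to 4. The controls lay close together and the lowest KO library was well above them, a 2.07-fold rise (log2 fold change 1.05, SE 0.09, adjusted p = 1.02e-06). Fdxr, a mitochondrial reductase that feeds electrons to steroid and iron-sulfur synthesis, had 37.1, 32.2, 30.6 and 29.3 CPM in the controls, against 40.9, 42.3, 42.6 and 44.9 in the KO libraries. This smaller rise (0.40, SE 0.10, adjusted p = 0.00698) also left no overlap.

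The other targets did not pass. Zmat3, an RNA-binding regulator of splicing, had 219.2, 188.2, 204.9 and 133.4 CPM across controls 1 to 4 and from 127.5 to 156.8 CPM across KO libraries; control 4 lay among the KO values (-0.36, adjusted p = 0.0517). Plk2, a polo-like kinase, had 214.9 to 307.5 CPM across controls against 200.8 to 270.4 CPM across KO libraries (-0.20, adjusted p = 0.244). Perp, a membrane protein of cell junctions, had 13.9, 12.2, 12.2 and 2.46 CPM across controls 1 to 4 and 7.09, 5.66, 7.05 and 6.62 CPM across KO libraries 1 to 4. Control 4 was the lowest of all 8 libraries, and the other controls were the highest 3. Without control 4 these 3 genes passed, with log2 fold changes of -0.50, -0.32 and -0.95. Rps27l, a variant of ribosomal protein S27 whose reads may be shared with close copies, was not shown to differ (-0.17, 95% interval -0.54 to 0.20). It passed without KO library 3, at 29.2 CPM the highest library. Dram1, a lysosomal membrane protein, had 50 counts in all controls and 17 in all KO libraries and was not tested.

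**Figure D2:**
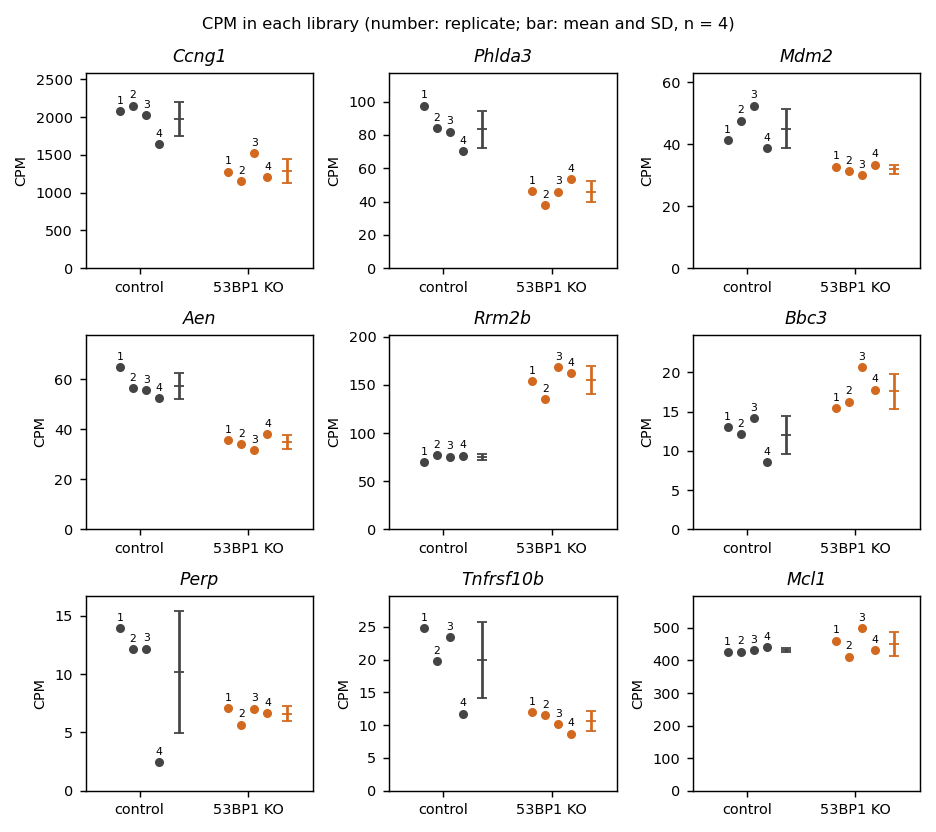
CPM in each library (y axis from 0) for 9 of the genes in the control and KO groups, with the replicate number above each point and the mean and SD (n = 4) beside it. Ccng1, Phlda3, Mdm2 and Aen are lower in all KO libraries and Rrm2b and Bbc3 higher in all, whereas control 4 lies within or below the KO values for Perp and Tnfrsf10b and Mcl1 overlaps.

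Spread within the controls was itself patterned for these genes. Control 4 had the lowest control value for 13 of the 17 tested targets in repair and arrest (76.5%), against 30.7% of all genes tested. The pattern was not particular to the targets. Control 4 was also lowest for 3 of the 5 receptors and caspases. It was lowest for 51.5% of 33 further p53 pathway genes and 53.1% of 32 further apoptosis genes, both described below. Control 1 was the highest control for 11 of the 17 targets (64.7%), against 26.5% of all genes tested. Over these 17 genes, the median difference of control 4 from the mean of the other controls was -0.32 on the log2(CPM + 0.5) scale, against 0.01 over all genes. In the same library, genes of the G1/S transition ran the other way, with control 4 the highest control for 13 of 16 genes (81.25%). Over all genes tested it was the highest control for 32.3%. Among 16 G2/M genes control 4 was the highest control for 7 and control 1 for 8. Mesenchymal markers of control 4 summed to 77.9 CPM, against 30.1 to 34.5 CPM in the other controls. Without control 4, 13 of 18 targets fell and 2 rose (median -0.60), Dram1 being tested in that fit and among the falls, while 14.3% of all 15310 genes tested in it fell and 15.9% rose. Over all roles 19 of 35 genes then fell and 4 rose (median -0.49). The part of the cell cycle or of mesenchymal cells in the values of control 4 was not tested.

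**Figure D3:**
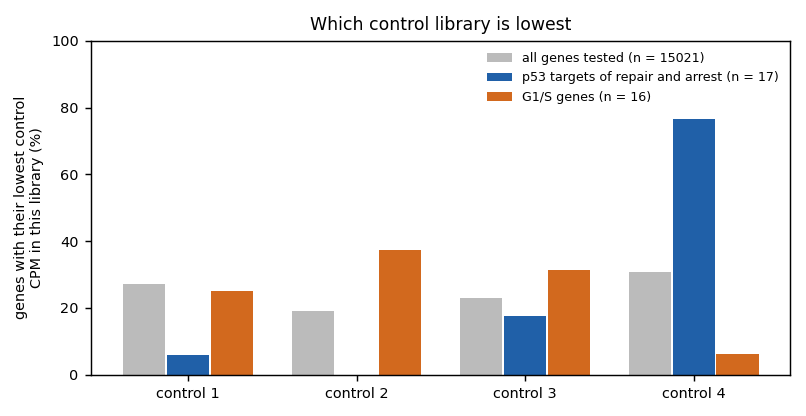
Share of genes (y axis, percent, from 0) for which each of the 4 control libraries (x axis) has the lowest control CPM, for all 15021 genes tested, the 17 tested p53 targets of repair and arrest and 16 G1/S genes. Control 4 is lowest for 76.5% of the targets, for 30.7% of all genes and for 6.25% of the G1/S genes.

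Among the BH3 and BCL2 genes of this role group, 2 BH3-only genes rose and 2 fell, and neither the pore-forming effectors Bax and Bak1 nor the protective genes passed. The family's median of -0.11 was -0.04 without control 4. Bbc3, the gene of PUMA, a strong p53-induced killer, had 12.99, 12.2, 14.2 and 8.60 CPM in the controls, against 15.5, 16.3, 20.7 and 17.8 in the KO libraries. All KO libraries were higher (0.55, SE 0.15, adjusted p = 0.0131). Bid, which links death receptors to the mitochondrion, had 3.95, 3.91, 3.87 and 2.65 CPM across controls 1 to 4 and 5.02, 5.40, 6.88 and 4.95 CPM across KO libraries 1 to 4. It rose without overlap (0.62, SE 0.18, adjusted p = 0.0197), and the call was lost without KO library 3. Exons of Bid and Bcl2l13 overlap on opposite strands in GENCODE, and the strand setting of the counting is not given in the sources used here.

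Pmaip1, the gene of NOXA, a BH3-only antagonist of Mcl1, moved opposite to Bbc3. It had 60.6, 58.8, 62.6 and 56.5 CPM in the controls, against 45.4, 35.5, 49.6 and 43.3 in the KO libraries, without overlap (-0.45, SE 0.10, adjusted p = 0.00462). Bcl2l11, the gene of BIM, had 4.00, 5.70, 5.42 and 7.31 CPM across controls 1 to 4 and 3.64, 4.18, 2.71 and 3.98 CPM across KO libraries 1 to 4. KO library 2 lay above control 1, and the fall (-0.63, SE 0.21, adjusted p = 0.0323) held only with all libraries or without control 1 or KO library 2 among the refits that left out 1 library. Bcl2l11 and Bcl2l1 lie on chromosome 2, as do Ddb2 and Trp53bp1; 29.3% of the genes tested on that chromosome passed, against 30.0% overall.

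The effector Bax had 132.4, 100.8, 101.3 and 106.4 CPM in the controls, against 87.2, 75.4, 104.9 and 98.2 in the KO libraries, so KO library 3 reached into the controls (-0.27, 95% interval -0.52 to -0.02, adjusted p = 0.101). Bak1, the other effector of this role group, had 28.0, 21.2, 22.6 and 24.2 CPM across controls 1 to 4, against 22.4, 24.8, 20.8 and 25.7 in KO libraries 1 to 4 (-0.04, 95% interval -0.28 to 0.21). The protective genes had intervals that included 0. Mcl1 was at 431.3 ± 6.58 CPM across controls and 450.6 ± 37.8 CPM in the KO libraries (0.06, 95% interval -0.12 to 0.24), Bcl2 at 87.7 ± 11.4 and 81.1 ± 3.32 CPM (-0.11, -0.32 to 0.10), and Bcl2l1, the gene of Bcl-xL, at 9.98 ± 1.68 and 9.03 ± 0.329 CPM (-0.15, -0.44 to 0.15). These intervals do not show equal levels, but they exclude a 2-fold change of Mcl1, Bcl2, Bcl2l1, Bax or Bak1.

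Per length of exon, Mcl1 stood highest in the family, at 126.2 CPM per kb in the controls, followed by Bax at 69.9 and Pmaip1 at 21.8. Next came Bak1 and Bcl2, at 9.97 and 9.58 CPM per kb in the controls, whose libraries overlapped. Bbc3 was at 5.64 CPM per kb in the controls and 8.27 in the KO libraries, where its 7.30 to 9.74 CPM per kb overlapped the 8.57 to 9.33 of Bcl2. Bcl2l1 (2.17), Bid (1.01) and Bcl2l11 (0.698) were lowest in the controls, where the libraries of Bid and Bcl2l11 overlapped. In the KO libraries Bid, at 1.57 CPM per kb, was closer to Bcl2l1, at 1.97, and the highest Bid library, at 1.94, overlapped the Bcl2l1 libraries. Lengths are exon unions of GENCODE M21 on GRCm38, and total RNA also holds unspliced transcripts, so this order is approximate.

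**Figure D4:**
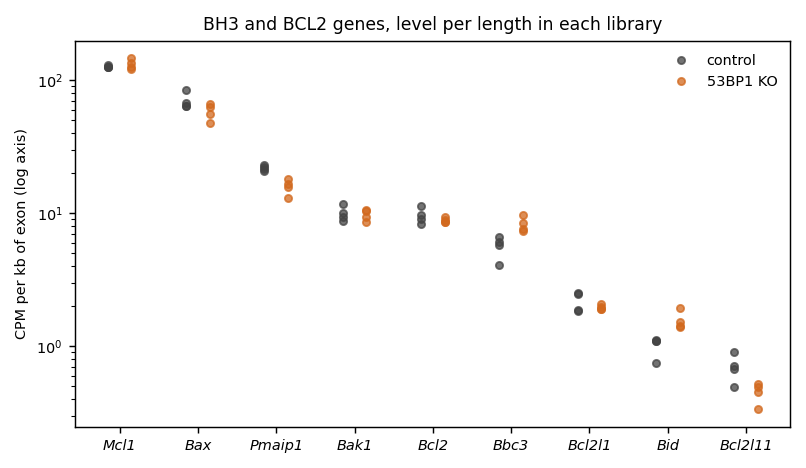
CPM per kb of exon (y axis, log scale) of the 9 BH3 and BCL2 genes (x axis, ordered by control mean) in each control and KO library, one point per library. Mcl1 is highest at 126.2 CPM per kb and Bcl2l11 lowest at 0.698 in the controls; Bbc3 and Bid are shifted up and Pmaip1 down in the KO libraries.

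Both death receptor genes fell. Tnfrsf10b, the mouse receptor for the ligand TRAIL, had 24.8, 19.8, 23.5 and 11.8 CPM across controls 1 to 4 and 12.1, 11.5, 10.2 and 8.72 CPM across KO libraries 1 to 4. Controls 1 to 3 were above every KO library and control 4 lay just below KO library 1 (-0.92, SE 0.20, adjusted p = 0.00266, or -1.11 without control 4). Fas, the receptor for Fas ligand, had 9.87, 13.7, 11.6 and 9.05 CPM in the controls, against 7.72, 5.05, 8.06 and 6.21 in the KO libraries, with no overlap (-0.70, SE 0.17, adjusted p = 0.00694). Apaf1, the scaffold of the apoptosome, had 11.7, 12.3, 13.6 and 11.3 CPM across controls 1 to 4 and 6.25, 11.1, 7.89 and 9.77 CPM across KO libraries 1 to 4. KO library 2 lay just below the lowest control, and the fall (-0.49, SE 0.16, adjusted p = 0.0329) was lost without control 2, control 3, KO library 1 or KO library 3.

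Neither initiator caspase of this role group passed. Casp8, which death receptors activate, had 27, 25, 29 and 21 counts across controls 1 to 4, against 22, 10, 19 and 26 across KO libraries 1 to 4; in CPM the groups did not overlap, but the depth left a wide interval (-0.54, 95% interval -1.15 to 0.07). Casp9, which the apoptosome activates, had 33.1, 23.8, 19.9 and 23.0 CPM in the controls, against 30.3, 28.9, 27.0 and 29.3 in the KO libraries. Control 1 was the highest of all 8 libraries and the other controls the lowest 3 (0.21, 95% interval -0.08 to 0.50). Without control 1 the gene passed, at 0.38. Exons of Casp9, Bak1 and Ddb2 also overlap those of other genes on the opposite strand.

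Of 33 tested genes from a list of 35 further p53 pathway genes, 7 rose (21.2%) and 6 fell (18.2%), near the 16.1% and 13.9% of all genes tested, with a median of -0.03 (0.03 without a filter on low counts). The largest falls were in Ptprv (-2.30), a phosphatase gene induced by p53 in mice, Ppp1r13l (-1.38), an inhibitor of p53, Pidd1 (-1.32), a death domain protein that activates caspase 2, and Eda2r (-0.84), a receptor of the TNF family on the X chromosome. Eda2r had 485.2, 537.8, 531.8 and 354.2 CPM across controls 1 to 4 and 266.1, 258.1, 283.2 and 258.1 CPM across KO libraries 1 to 4, and again control 4 was the lowest control without reaching the KO range. The largest rises were in Sesn2 (1.99), a leucine sensor, Gdf15 (3.14-fold), a secreted stress factor, Gadd45a (2.83-fold), a growth arrest gene, and Cdkn2a (0.48), the locus of p16 and p19Arf. Gadd45a and Gdf15 had 113 and 146 counts in all controls together. The call of Cdkn2a was lost without control 2, control 3 or KO library 4, and that of Ppp1r13l without control 4 or KO library 4. The 7 rises became 3 without control 2 or KO library 4 and 4 without control 3 or KO library 1. Over all genes, rises also varied across the refits that left out 1 library, from 1753 to 2432, against 2412 with all libraries.

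Cdkn1a, the gene of the cell cycle inhibitor p21 and the best known arrest target of p53, was picked here after its values were seen. It had 74.5, 45.4, 47.8 and 23.99 CPM in the controls, against 37.0, 33.1, 37.0 and 34.00 in the KO libraries. Controls 1 to 3 lay above all KO libraries and control 4 below them, and the gene did not pass (-0.44, 95% interval -0.94 to 0.05, adjusted p = 0.166). Cdkn1a passed without control 4 (-0.67, adjusted p = 0.00161), with voom and with low genes kept, and was at -0.15 (adjusted p = 0.584) without control 1.

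Of 32 tested genes from a list of 37 further apoptosis genes, 6 rose (18.8%) and 5 fell (15.6%), near the 16.1% and 13.9% of all genes tested, with a median of 0.02. That median was below 0 without control 4, KO library 2 or KO library 3, and with upper-quartile scaling, DESeq2 or voom. Bmf, a BH3-only gene that binds protective BCL2 proteins, had 3.78, 4.45, 5.93 and 4.27 CPM across controls 1 to 4 and 16.4, 16.99, 13.4 and 17.4 CPM across KO libraries 1 to 4 (1.80, SE 0.15, adjusted p = 1.07e-06). Hrk, a BH3-only gene known from neuronal death, had 2, 2, 1 and 4 counts across controls 1 to 4, against 27, 12, 23 and 33 across KO libraries 1 to 4 (3.19, SE 0.47), and its fold rests on these few counts. Of the other BH3-only genes on the list, Bad was at 0.06 (adjusted p = 0.748), and Bik, with 19 counts in all controls and 3 in all KO libraries, was not tested. Endog (0.79), a mitochondrial nuclease, and Tnfrsf21 (0.61), the death receptor DR6, rose too. Among the falls were Birc5 (-0.62), which encodes survivin and is also a mitotic gene, the BCL2 relative Bok (-0.61) and Casp2 (-0.54). Bmf and Endog lie on chromosome 2, as Trp53bp1 does. The 5 falls became 8 without control 4, a fit in which 14.3% of all 15310 genes tested fell.

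**Figure D5:**
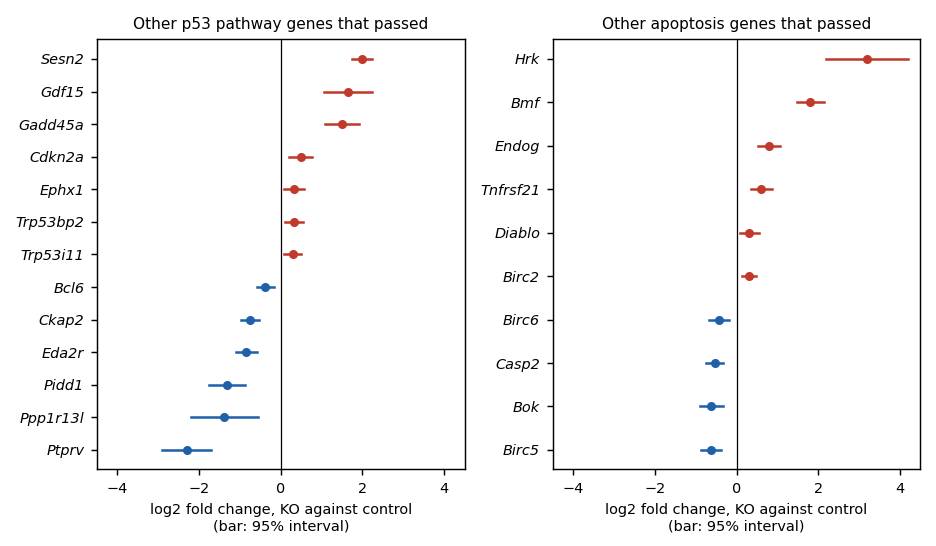
Log2 fold change of KO against control libraries (x axis) with 95% intervals for the genes that passed among 33 further p53 pathway genes (13 genes) and 32 further apoptosis genes (10 of 11 genes shown); red points rose and blue points fell. Sesn2 at 1.99 and Ptprv at -2.30 mark the ends of the first panel, and Hrk at 3.19 has the widest interval of the second.

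Other programmes also differed between the groups, though not always library by library: control 4 was the highest control for most G1/S genes and the lowest for most p53 targets. Summed over 16 G1/S genes, levels ranged from 2053 to 2724 CPM across controls and from 980.5 to 1239 CPM across KO libraries, and all 16 fell, with Ccne2 (-2.15) and Cdc6 (-1.95) the furthest. Of 16 G2/M genes 15 fell, among them Mki67 (-1.01) and Bub1b (-0.86), and Gtse1, Birc5 and other genes above are themselves tied to the cell cycle. Summed over 12 targets of the stress factor ATF4, levels ranged from 936.6 to 1257 CPM across controls and from 3988 to 4773 CPM across KO libraries, and all 12 rose, with Trib3 (6.03) and Chac1 (5.05) the furthest. Sesn2 is on both this list and that of further p53 pathway genes. The part of these programmes, of the astrocyte and mesenchymal markers and of sex in the values of the p53 and apoptosis genes was not tested.

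Set beside the decamers printed above, 7 of the 10 genes with one in their window fell and 0 rose, and Bax, Rps27l and Trp53 did not pass. Of the 16 tested genes whose window held none, 6 fell and 3 rose. Phlda3 (-0.86) was among those without one, and so were Fdxr and Bbc3 among the rises. Of the 8 genes without a window, 3 fell and 1 rose. Over all genes tested 13.9% fell and 16.1% rose, and the shares among all genes with a decamer were not computed. Targets in repair and arrest make up 7 of the 10 genes with a decamer, so decamer and role cannot be told apart here. Whether falls go with the decamer was not tested. The window is short and p53 sites can lie outside it, so these counts describe the windows only.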

How the data were processed

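The authors deposited read counts per gene, as whole numbers, for 8 libraries; they came from stranded total RNA libraries sequenced as paired ends, per the labels' protocols. CASAVA, HTSeq 0.6.1p1 and the builds mm9 and NCBIM37 are named in the submitters' processing notes. For the aligner and strand setting, the sources used here give nothing. Total counts ranged from 11081419 to 24339621, and 3 counts corresponded to between 0.126 and 0.261 CPM. No pair of libraries of a group agreed within sampling noise (chi-square per degree of freedom between 4.45 and 36.2), so all were kept.

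Low genes were removed (filterByExpr) and TMM scaling applied; edgeR 4.0.16 in R 4.3.3 then gave a quasi-likelihood F-test per gene, with Benjamini-Hochberg adjustment over 15021 genes. SE is the size of the log2 fold change divided by the square root of F. Alternatives used DESeq2 1.42.0, limma 3.58.1 voom, other scaling and filters, a replicate block and leaving out each library.

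The members and lists were chosen with earlier results of these data known. Named genes are the 36 members, Trp53bp1, Xist, Ddx3y, up to 4 rises and 4 falls per further list and the 2 largest changes per cell cycle and ATF4 list. One gene that the rule names is not reported here. Cdkn1a and genes named for overlapping exons, the progenitor markers, Bad and Bik stand outside this rule. Promoter sequences and chromosomes are RefSeq's on GRCm38.p6; exon lengths and overlaps are GENCODE M21's.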

Additional observations from a re-analysis of the deposited data

Results flagged for a closer look

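In 5 of 72 groups of 4 libraries, 1 library lay far from the other 3, with a gap to its nearest neighbour, as a share of the group's range, above Dixon's 95% critical value. Chance gives about 1 such group in 20. Perp in control 4, at 2.46 CPM against 12.2 to 13.9 in the other controls, had a gap of 0.846 of the range. Bid in the same library, at 2.65 CPM, had a gap of 0.94. Polk in KO library 4, at 22.5 CPM, had a gap of 0.907, within a range of little more than 2 CPM. Casp8 in KO library 2, with 10 counts, had a gap of 0.913, and Dram1 in control 3, with 20 counts, had a gap of 0.889. The last 2 rest on few counts.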

How the results depend on the processing

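Over 16 alternatives, 504 of 544 values of the 34 tested genes kept their side of the threshold, 25 were no longer called, 15 became called, and no called value changed direction. Of the 20 called genes, 15 were called in every alternative; Mdm4, Ei24, Bid, Bcl2l11 and Apaf1 were not. Ei24 and Mdm4 were also lost without a filter on low counts. Zmat3 was called in 7 alternatives, Perp in 3, Plk2 and Casp9 in 2 each and Rps27l in 1. The regulators that fell were 1 without a filter, where more genes were tested. With voom, 1 receptor or caspase gene rose and 10 further p53 pathway genes fell. The share of all genes called with voom is not given here, so these counts are not a result about the lists. The median of all genes was -0.13 without a filter and -0.19 with DESeq2, each over 30508 genes. Leaving out 1 library in turn gave between 1753 and 2432 genes higher and between 1497 and 2193 lower over all genes, and among the tested genes of the 4 roles between 3 and 5 higher and between 12 and 19 lower. By role, between 1 and 2 regulators, 8 and 13 targets, 1 and 2 BH3 and BCL2 genes, and 2 and 3 receptors and caspases fell; between 1 and 2 BH3 and BCL2 genes and between 0 and 1 receptors and caspases rose. Between 3 and 7 further p53 pathway genes rose and 5 to 8 fell, and 5 to 6 further apoptosis genes rose and 5 to 8 fell. The cause of these shifts was not tested.

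Libraries share replicate numbers across groups, but the deviations of same-numbered libraries correlated between -0.20 and 0.20, so the numbers were not taken as pairs; 3 of 4 numbers matched best with their own. With the replicate number as a block, 4177 genes were called, 4008 of them among the 4499, and 1 regulator fell; Mdm4 and Ei24 were not called.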
